A study of Mus musculus with 13 samples.

Results

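A set of 9 mouse genes tied to neutrophils was followed across all 13 RNA libraries of the series: the receptors Csf3r and Cxcr2, the CXCR2 ligands Cxcl1, Cxcl2 and Cxcl5, the calcium-binding proteins S100a8 and S100a9, and the granule proteins Mmp8 and Ngp. They were chosen by gene symbol, and all 9 were found among the 22609 genes of each table. Transplanted E0771 tumours, from a mouse mammary cancer line, came from 3 hosts labelled KO and 3 labelled WT. Visceral fat, taken after HFD feeding (by the usual reading a high-fat diet), came as 4 KO and 3 WT libraries. All hosts were C57BL/6, and by the series title a KO host lacked PD-L1, the product of Cd274, in its fat. The labels used here give neither the promoter that drove the deletion nor the age or sex of the mice. Nothing in them ties each library to a separate mouse. The p-values below then reflect only how much these libraries differed, which may be technical.

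As background, neutrophils are short-lived phagocytes made in the bone marrow under granulocyte colony-stimulating factor (G-CSF), which acts through Csf3r. In mice they leave the marrow and enter tissue along CXCR2 ligands such as Cxcl1, Cxcl2 and Cxcl5, which are made by stromal, epithelial and myeloid cells, often downstream of NF-kappaB. A mature neutrophil carries S100a8 and S100a9 protein in its cytosol in large amounts, and packs proteins such as Ngp and Mmp8 into granules during its growth in the marrow. Csf3r is also transcribed by monocytes and macrophages, and Cxcl2 by activated macrophages. In bulk tissue, fewer cells of a type and less RNA per cell cannot be told apart.

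The promoters of 3 CXCR2 ligand genes are shown first, because their levels are described together below and they share a run of letters of the form known for NF-kappaB sites. The longest run common to Cxcl1, Cxcl2 and Cxcl3 was 11 bases, GGGAATTTCCC, which was then searched on both strands in the RefSeq promoter windows of 300 bases on GRCm38.p6. The 3 genes were chosen after their promoters had been read. The run is held by 14 of 32851 promoters (0.0426%), and by those of Cxcl1 and Cxcl2 among the 8 members with an entry. Cxcl1 and Cxcl2 hold it by construction, since the run was taken from them, so no enrichment is read from this count. Cxcl5 is named only. The first base of the run lies at -71 from the RefSeq start in Cxcl1, at -97 in Cxcl2 and at -73 in Cxcl3. The stretches upstream of the annotated starts lie on the plus strand at chr5:90890995-90891240 for Cxcl1, chr5:90903649-90903870 for Cxcl2 and chr5:90785851-90786100 for Cxcl3. Capitals mark the shared run.
Cxcl1: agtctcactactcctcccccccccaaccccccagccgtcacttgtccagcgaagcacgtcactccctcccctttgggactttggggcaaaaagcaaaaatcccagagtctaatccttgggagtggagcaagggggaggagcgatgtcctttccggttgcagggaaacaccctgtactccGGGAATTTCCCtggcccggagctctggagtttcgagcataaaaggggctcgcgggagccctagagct
Cxcl2: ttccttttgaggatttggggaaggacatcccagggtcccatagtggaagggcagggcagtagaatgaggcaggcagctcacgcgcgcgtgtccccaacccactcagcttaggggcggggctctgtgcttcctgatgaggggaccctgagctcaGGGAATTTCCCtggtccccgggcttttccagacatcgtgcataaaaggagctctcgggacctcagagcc
Cxcl3: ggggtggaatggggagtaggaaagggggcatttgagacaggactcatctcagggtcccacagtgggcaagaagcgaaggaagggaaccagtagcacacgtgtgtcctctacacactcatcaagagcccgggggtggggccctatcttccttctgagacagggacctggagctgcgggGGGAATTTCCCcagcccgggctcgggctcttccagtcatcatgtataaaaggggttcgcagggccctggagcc
A match describes the letters and says nothing about binding. The 3 genes resemble each other beyond the promoter too: the longest run shared by transcripts of Cxcl2 and Cxcl3 is 110 bases, against 23 bases for Cxcl1 and either of them, so reads may have been exchanged between Cxcl2 and Cxcl3, and the values of both are uncertain to that extent.

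On the genome (GRCm38, GENCODE M21) Cxcl5 (chromosome 5, 90759360 to 90761624), Cxcl1 (90891241 to 90893115) and Cxcl2 (90903871 to 90905938) lie in 1 cluster on the plus strand. S100a8 (chromosome 3, 90668978 to 90670035, plus strand) and S100a9 (90692632 to 90695721, minus strand) are neighbours too. Cxcr2 is on chromosome 1 (74153989 to 74161246), Csf3r on chromosome 4 (126024550 to 126044440), Mmp8 on chromosome 9 (7558456 to 7568485) and Ngp on chromosome 9 (110419747 to 110423012). No member overlaps another annotated gene.

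Gene reads per library ran from 22834259 to 34706555 in the tumours and from 29362788 to 41534662 in fat. The targeted gene Cd274 did not separate the labels. In fat its normalised value was 521.1 to 563.8 in KO and 504.1 to 738.6 in WT (limma log2 fold change -0.10, SE 0.15, Benjamini-Hochberg adjusted p = 0.66). That sign turned without the WT column numbered 3 (0.076). In the tumours it averaged 2043 ± 432 normalised reads in KO and 1584 ± 167 in WT (SD, n = 3 each; edgeR log2 fold change 0.37, SE 0.16, Benjamini-Hochberg adjusted p = 0.717). The labels used here do not say which stretch of the gene was deleted, and cells other than adipocytes also transcribe it, so this is no check of the labels, and KO and WT below are the submitters' labels. Summed adipocyte markers were 249200 to 387300 in KO fat and 796800 to 807900 in WT fat, and at most 380.9 in any tumour. Summed mammary epithelial markers were 8975 to 9758 in KO tumours and 8967 to 10660 in WT tumours. Krt8 made up most of this sum, with 8735 to 9492 in KO and 8440 to 10310 in WT. Over the 6 markers the median log2 fold change was -0.224, and -0.697 without the library KO 2. All 6 were below 0 both times and 0 were called. Ly6g, a defining surface marker of mouse neutrophils, was looked for by name and was not among the gene symbols of either tissue. The tumour library KO 2 stood apart for the members: it was the highest of the 6 tumours for 7 of the 9, and for 24.3% of the 13109 genes tested. It had the fewest gene reads of the tumours. By genes at least 3 times as high as in any other tumour, KO 2 had 16 and WT 3 had 19.

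In the tumours, S100a8, S100a9, Cxcr2, Cxcl1 and Cxcl2 had higher means in KO hosts, and each of these log2 fold changes turned negative without KO 2. The other 2 KO tumours lay below all 3 WT tumours for S100a8, S100a9, Cxcr2 and Cxcl2. This leaves aside KO 2, the highest tumour for these genes. The share of all genes with this pattern was not counted, and nothing is read from it. None of the 7 members with enough reads for the edgeR test passed (unadjusted p = 0.186 to 0.922), and neither did any of the 13109 genes tested (0% called in either direction). At an unadjusted p of less than 0.05, 3.79% of all genes were higher in KO and 3.11% lower, and 0 of the members. The share called by DESeq2, of 16958 genes, was 0.277% higher and 0.0708% lower, with no member among them, and it returned no adjusted p for S100a8, S100a9 or Cxcr2.

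**Figure D1:**
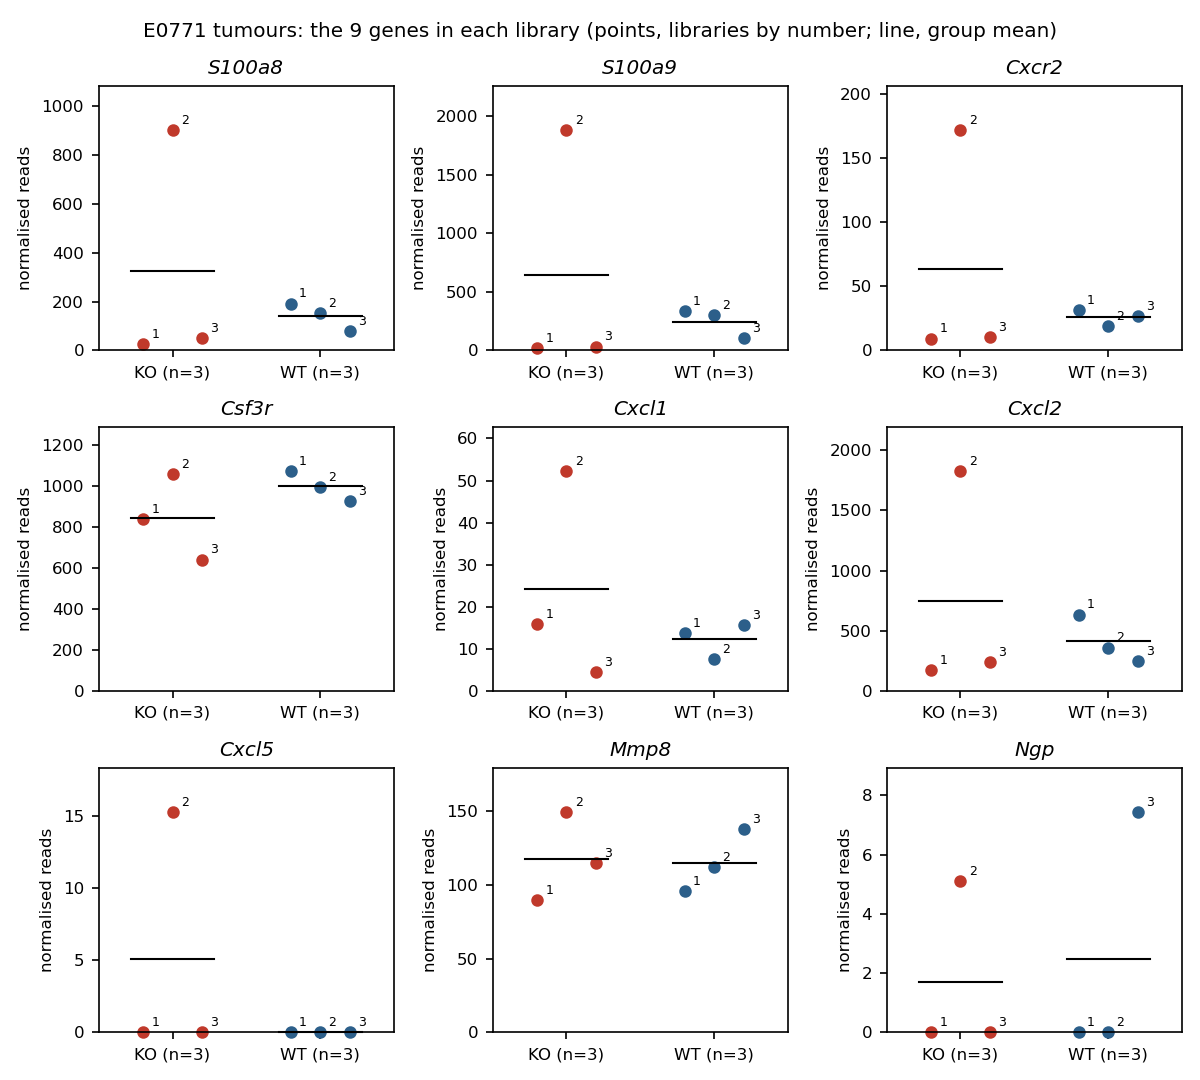
Levels of the 9 genes in E0771 tumours (vertical axes, normalised reads, each from 0) in hosts labelled KO (red, left) and WT (blue, right). Points are libraries with their replicate number and lines are group means. KO 2 is the highest point for 7 genes, and for S100a8, S100a9, Cxcr2 and Cxcl2 the points of KO 1 and KO 3 lie below all WT points.

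Of the receptors, Csf3r, which receives G-CSF, spread least. It had 836, 1055 and 641 normalised reads (counts rescaled by TMM library size) in the KO tumours and 1071, 994 and 924 in the WT tumours. The groups overlapped, through KO 2, and edgeR put the difference, KO minus WT, at -0.24 (log2, SE 0.18, adjusted p = 0.823). Cxcr2, the receptor of the ligands above and a marker of mature mouse neutrophils, had 9.28, 172 and 10.1 normalised reads in KO and 31.5, 19.1 and 27.0 in WT. KO 2 was 5.46 times the next library, and the other KO tumours were the lowest of the 6. The edgeR estimate was 1.27 (log2, SE 0.90, adjusted p = 0.82), and -1.41 without KO 2. Cxcr1, the related receptor, had at most 3.82 normalised reads in any tumour.

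Cxcl2, the highest of the 3 ligands in the tumours per length of annotated exons, had 175, 1823 and 243 normalised reads in KO and 634, 363 and 248 in WT. KO 2 was 2.87 times the highest WT tumour, and KO 1 and KO 3 lay below the lowest. By edgeR KO minus WT was 0.84 (log2, SE 0.70, adjusted p = 0.851), and -0.99 without KO 2. Cxcl1, a ligand of stromal and myeloid cells, had 16.0, 52.2 and 4.49 in KO and 13.8, 7.64 and 15.8 in WT. By edgeR the difference was 0.93 on the log2 scale (SE 0.74, adjusted p = 0.842) and -0.23 without KO 2. KO 1 and KO 3 lay on either side of the WT tumours for this gene. Cxcl5 had 12 reads in KO 2 and 0 in each of the other 5 tumours, where a count of 0 allows up to 3 reads for counting error. Cxcl3 followed the same library, with 3.37, 269 and 7.86 in KO and 35.5, 0 and 0.93 in WT. It had too few reads in most tumours to be tested.

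S100a9 and S100a8 form the heterodimer calprotectin. S100a9 had 22.8, 1883 and 31.4 normalised reads in KO and 337, 299 and 103 in WT. KO 2 was 5.59 times the next library and 69.5 times the mean of the other 2 KO tumours. By edgeR KO minus WT came to 1.38 (log2, SE 1.15, adjusted p = 0.851), and to -3.19 without KO 2, still short of the threshold (adjusted p = 0.245). S100a8 had 25.3, 903 and 49.4 in KO and 192, 152 and 79.0 in WT. Its edgeR estimate was 1.19 (log2, SE 0.95, adjusted p = 0.841), and -1.93 without KO 2 (adjusted p = 0.558). For both genes the 2 remaining KO tumours lay under the lowest WT tumour. The two-sided exact permutation p was 0.9 for S100a8 and 0.8 for S100a9 over 20 relabellings, where 3 against 3 libraries cannot give less than 0.1.

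The 2 granule genes gave no difference past the test. Mmp8, the neutrophil collagenase, had 89.4, 149 and 115 normalised reads in KO and 95.6, 112 and 138 in WT, and the groups interleaved (edgeR log2 fold change 0.03, SE 0.27, adjusted p = 0.991; -0.18 without KO 2 and -0.10 without WT 1). Ngp, a granule protein of maturing neutrophils, had 4 reads in KO 2, 8 in WT 3 and 0 in the other 4 tumours, so no direction can be read. Elane, Camp and Olfm4, further genes of granule proteins, also had 0 reads in all 6 tumours. The other 15 of the 18 granule genes listed below had reads in some tumour. Among them Mmp9 had 344.7 to 579.7 normalised reads over the tumours, Ltf 30.35 to 62.43 and Mpo at most 5.096.

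Of the 9 genes of CXCR2 ligands and receptors in the table, KO 2 was the highest tumour for 8, and the 3 that could be tested are members. Among wider lists, 25 genes of the neutrophil surface and cytosol were in the table. KO 2 was the highest tumour for 17 of the 23 that had any read. Of 17 tested, 0 passed in either direction, with 14 log2 fold changes above 0 and a median of 0.41, against 0.00368 over all genes tested. Without KO 2, 5 of the 17 were above 0 and the median was -0.43, against 0.00398 over all genes tested. Trem1, a receptor that amplifies neutrophil and monocyte responses, had 64.9, 343 and 67.4 normalised reads in KO and 176, 116 and 61.4 in WT (log2 fold change 0.41, SE 0.59, edgeR adjusted p = 0.912; -0.83 without KO 2). Clec4d, a C-type lectin of myeloid cells, had 733, 1449 and 545 in KO and 638, 629 and 358 in WT (0.74, SE 0.32, edgeR adjusted p = 0.712). Fpr1, the formyl peptide receptor, had 154, 327 and 223 in KO and 162, 107 and 114 in WT (0.87, SE 0.29, edgeR adjusted p = 0.627). Retnlg, in contrast, was highest in WT 2, with 21.1, 84.1 and 6.74 in KO and 58.1, 115 and 39.97 in WT (-0.95, SE 0.70, edgeR adjusted p = 0.823).

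The granule list had 18 genes in the table and 11 tested, with 4 log2 fold changes above 0, 7 below and a median of -0.04. Without KO 2, 1 was above 0 and 10 below (median -0.31). Lcn2, which binds bacterial siderophores, was the gene most like S100a8 in pattern. It had 14.3, 237 and 35.9 normalised reads in KO and 63.0, 61.1 and 16.7 in WT (1.01, SE 0.82, edgeR adjusted p = 0.846; -0.92 without KO 2). Hp (haptoglobin) and Chi3l3, a chitinase-like protein that macrophages also make, had lower means in KO. Hp had 225, 663 and 389.6 in KO and 932, 922 and 562 in WT, and Chi3l3 458, 678 and 642 in KO and 1242, 2475 and 471 in WT. Their log2 fold changes were -0.93 (SE 0.33) and -1.24 (SE 0.43), both with an edgeR adjusted p of 0.646. Cd177, a surface protein of neutrophils, gave -0.80 on the same scale (SE 0.33, edgeR adjusted p = 0.692).

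Among the signals for neutrophil growth and recruitment, Csf3, the gene of G-CSF, had 0, 40.8 and 0 normalised reads in KO and 10.8, 8.59 and 0 in WT, with KO 2 again the highest. Il1a, an alarm cytokine, had 24.5, 162 and 8.98 in KO and 16.8, 20.1 and 27.9 in WT (1.57, SE 0.81, edgeR adjusted p = 0.757; -0.34 without KO 2). Cebpb had 1453, 1302 and 1291 in KO and 3197, 1952 and 1673 in WT (-0.75, SE 0.21, edgeR adjusted p = 0.511). Csf2rb2 had 1079, 1265 and 801.6 in KO and 694.5, 624.4 and 788.2 in WT (0.58, SE 0.18, edgeR adjusted p = 0.552). Cxcr4 had 442.7, 547.9 and 570.3 in KO and 631.4, 880.3 and 673 in WT (-0.49, SE 0.17, edgeR adjusted p = 0.652). Of the 18 tested genes of granulopoiesis and recruitment, 0 passed, 8 log2 fold changes were above 0 and 10 below (median -0.08). Without KO 2, 6 of 19 were above 0 and 13 below (median -0.17). Of the 10 tested adhesion genes 9 were above 0 (median 0.24) and 0 passed, and without KO 2 it was 7 of 11 (median 0.15). The NF-kappaB feedback genes, 11 of them tested, had a median of 0.12 with 0 passed, and KO 2 was the highest for 7 of the 11 with reads. Without KO 2 their median was -0.0128, with 4 above 0 and 7 below.

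Markers of other cell types were also high in KO 2. Its summed mast cell markers were the highest of all tumours (6229, 10970 and 3279 in KO, 1346, 928 and 2063 in WT), with KO 2 on top for 7 of 7 markers, and so were its T cell markers (3848, 8439 and 4914 in KO, 3147, 3236 and 4250 in WT), on top for 5 of 6. Krt14 and Krt5, keratins of basal epithelium listed after their values were seen, had 196.2 and 94.28 normalised reads in KO 2. In the other tumours they had at most 37.43 and 23.87. Of the 6 mammary epithelial markers, KO 2 was the highest tumour for 2. Alas2, an enzyme of red cell precursors, had 421.6, 2008 and 592.8 normalised reads in KO and 975.2, 1800 and 1130 in WT. The 3 other red blood cell markers were at 0 in every tumour and in every fat library, so they are no measure of blood. Macrophage markers summed to 65420 to 93250 in KO and 65680 to 74470 in WT, with KO 2 on top for 1 of 11. Monocyte markers summed to 17910 to 19170 in KO and 18510 to 33550 in WT. Their part in the levels of the neutrophil genes was not tested.

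In visceral fat, Csf3r and Cxcl2 rose in KO libraries, while the other 5 tested members did not pass limma and none fell. These 2 of 7 stand against 16.8% of all 14455 genes called higher and 17.4% called lower and nothing is read from the members' count. DESeq2 on the recovered reads called 4 members higher (S100a9, Cxcr2, Csf3r and Cxcl2), against 14.9% of 18566 genes higher and 16.5% lower. Those are all genes with any read, a wider base than the filtered genes of the other fits. With edgeR on those reads 1 member was called (Csf3r), against 16.3% of 14464 genes higher and 17.6% lower. Cxcr2 and Ngp had too low values to be tested. As in the tumours, a library numbered KO 2 was the highest for 7 of the 9 members, and the labels do not say whether both KO 2 libraries came from 1 mouse. In fat KO 2 was the highest for 15.2% of all genes tested.

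Another fat library, WT column 4, stood apart over all genes. It was at least 3 times as high as any other fat library for 90 of the tested genes (0.623%), against 5 (0.0346%) for KO 2. Epcam and Cdh1, epithelial adhesion genes singled out after their values were seen, stood at 142.3 and 92.8 in WT column 4. In the other 6 libraries Epcam was at 2.158 to 7.264 and Cdh1 at 4.54 to 13.25. Summed mammary epithelial markers were 643.6, 559.9, 631.0 and 463.6 in KO and 737.2, 866.7 and 1701 in WT, the last in column 4. Their part in the results below was not tested. Without WT column 4 no member was called by limma. The log2 fold changes, KO minus WT, were then 0.69 for Csf3r (limma adjusted p = 0.0523), 0.94 for Cxcl2 (0.124), 1.39 for S100a9 (0.286), 0.30 for S100a8 (0.483), 0.69 for Mmp8 (0.43), 0.21 for Cxcl5 (0.86) and -0.42 for Cxcl1 (0.467). The difference of means for Cxcr2 was 1.27.

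**Figure D2:**
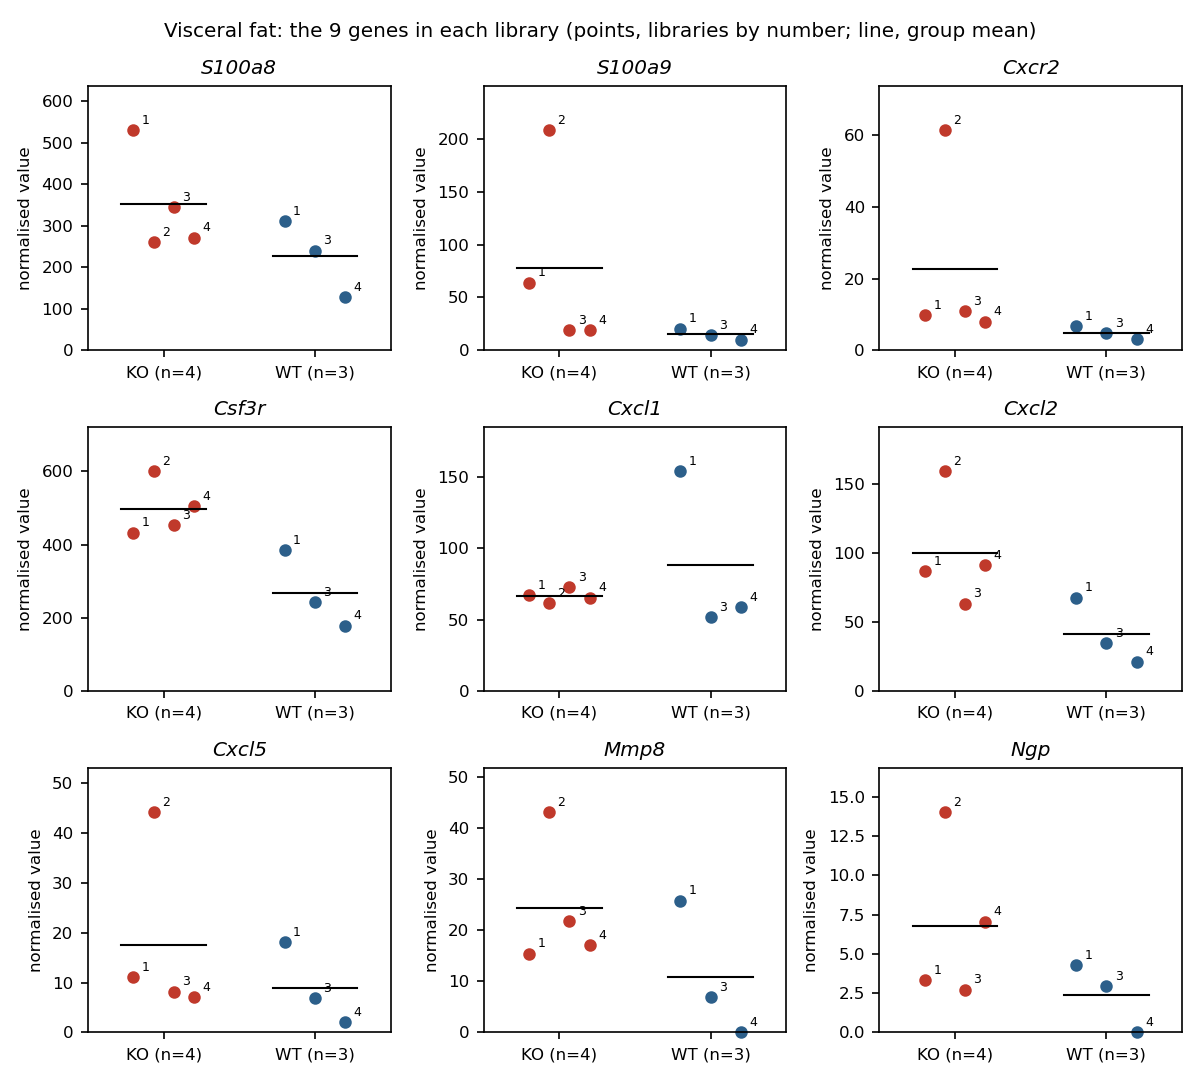
Levels of the 9 genes in visceral fat (vertical axes, normalised values, each from 0) in libraries labelled KO (red, left) and WT (blue, right). Points are libraries with their replicate or column number and lines are group means. All KO points lie above all WT points for Csf3r and Cxcr2. The share of all genes separated in this way was not counted. KO 2 is the highest point for 7 genes.

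Csf3r had normalised values of 433, 601, 453 and 506 in the 4 KO libraries and 385, 244 and 179 in the WT columns numbered 1, 3 and 4. Every KO library was above every WT library. The share of all genes separated in this way was not counted, so nothing is read from it, here or for other genes below. The difference of mean log2(value + 1), which serves as the fold change in fat and understates the change of low genes, was 0.94 (SE 0.25, limma adjusted p = 0.0213), a fold of 1.93 with a 95% confidence interval of 1.29 to 2.88. The call held without KO 1, KO 3 or WT column 1, and ended without KO 2, KO 4, WT column 3 or WT column 4 (adjusted p = 0.0523 to 0.0736). The two-sided exact permutation p was 0.0286, the smallest that 35 relabellings can give.

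Cxcl2 had normalised values of 87.2, 159.7, 63.6 and 91.7 in KO and of 68.0, 35.2 and 21.7 in WT. KO 3 lay below the highest WT column, so the groups overlapped by 1 library. Its log2 fold change was 1.32 (SE 0.43, limma adjusted p = 0.0449), a fold of 2.50 with a 95% confidence interval of 1.26 to 4.96. Without filtering low values the adjusted p was 0.0585, edgeR on the recovered reads gave 0.0636, and the call ended in 5 of the 7 fits that left 1 library out (up to 0.124), those without KO 1, KO 2, KO 4, WT column 3 or WT column 4.

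Cxcl1, the neighbour of Cxcl2, did not pass. It had 67.3, 61.5, 72.6 and 65.5 in KO and 154, 51.9 and 58.8 in WT, a narrow KO group around which the WT columns spread on both sides. The log2 fold change was -0.22 (SE 0.37, limma adjusted p = 0.675, 95% confidence interval of the fold 0.479 to 1.54), and 0.27 without WT column 1. Cxcl5 had 11.04, 44.2, 8.17 and 7.05 in KO and 18.1, 6.85 and 2.06 in WT. Outside KO 2 its values lay within the WT range, and the log2 fold change was 0.88 (SE 0.79, limma adjusted p = 0.421, interval of the fold 0.523 to 6.46). Cxcl3 reached 14.0 in KO 2 and at most 4.30 elsewhere. Ppbp, the platelet ligand of CXCR2, had 24.3, 32.4, 19.1 and 15.1 in KO and 16.3, 45.98 and 51.6 in WT (-0.61, SE 0.46, limma adjusted p = 0.331).

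Cxcr2 had normalised values of 9.94, 61.5, 10.9 and 8.06 in KO and 6.88, 4.89 and 3.09 in WT, from 57 recovered reads in KO 2 and 3 to 12 in the other 6 libraries. Every KO value was above every WT value, with KO 2 at 5.64 times the next. The two-sided exact permutation p on log2(value + 1) was 0.0571 over 35 relabellings, and the difference of means was 1.52. Without KO 2 it was 0.88, with an exact permutation p of 0.1, the smallest that 3 against 3 libraries allow.

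S100a8 and S100a9 differed in pattern in fat. S100a9 had 64.0, 208, 19.1 and 19.2 in KO and 20.7, 14.7 and 10.3 in WT: KO 1 and KO 2 were above all WT columns, and KO 3 and KO 4 lay inside their range. Its log2 fold change was 1.63 (SE 0.79, limma adjusted p = 0.145, interval of the fold 0.879 to 10.9), and 0.93 without KO 2. DESeq2 on the recovered reads gave 2.35 with an adjusted p of 0.0153. S100a8 had 529.9, 260.0, 344 and 271 in KO and 311, 239.7 and 129 in WT, highest in KO 1 and not in KO 2. Its limma estimate was 0.66 (log2, SE 0.34, limma adjusted p = 0.169, interval of the fold 0.916 to 2.73).

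Mmp8 had 15.5, 43.2, 21.8 and 17.1 in KO and 25.8, 6.85 and 0 in WT. WT columns 3 and 4 lay below all KO libraries, and WT column 1 above 3 of them. The log2 fold change was 1.98 (SE 0.99, limma adjusted p = 0.155), with 3.06 without WT column 1 (adjusted p = 0.0268) and 0.69 without WT column 4. Ngp had 3.31, 14.0, 2.72 and 7.05 in KO and 4.30, 2.94 and 0 in WT, from at most 13 reads in any library (exact permutation p = 0.257).

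**Figure D3:**
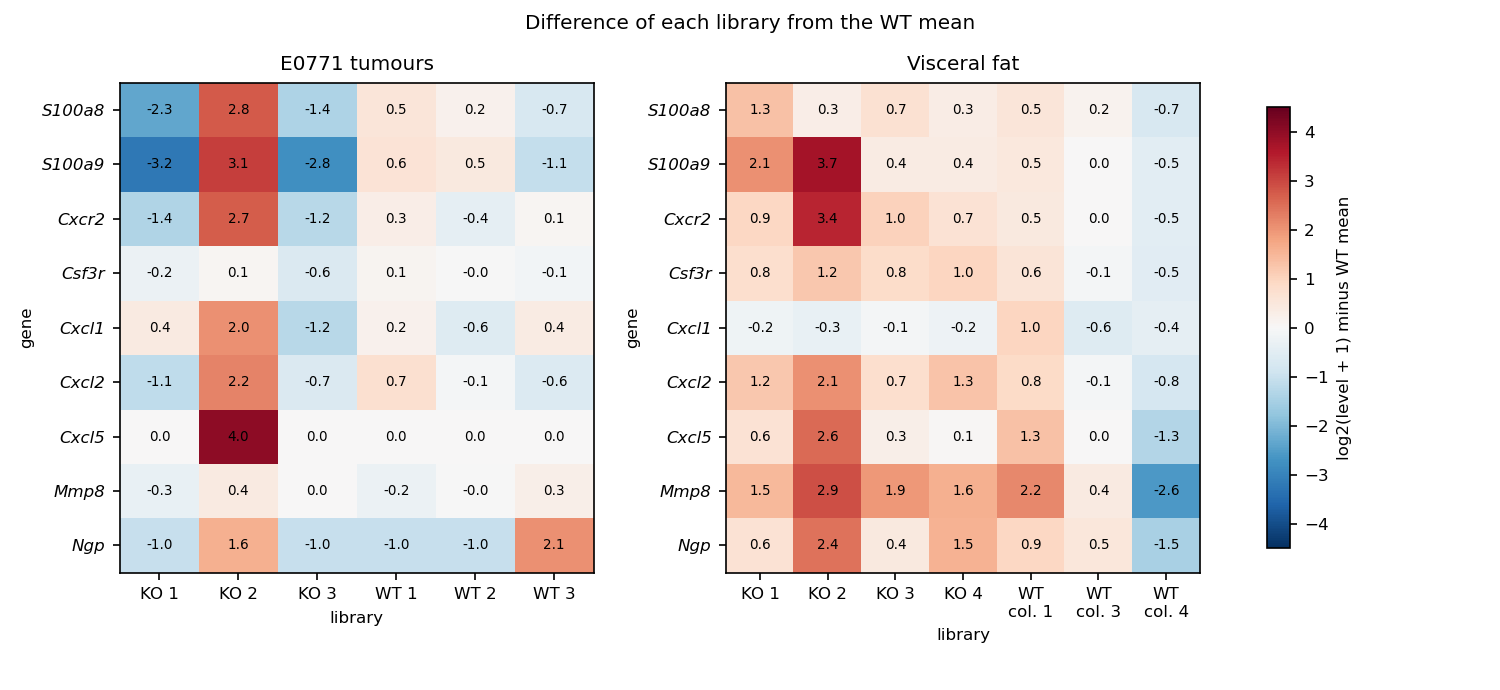
Log2(level + 1) of each gene in each library minus the mean of the WT libraries of that tissue, as colour and number, for tumours (left, normalised reads) and fat (right, normalised values). KO 2 holds the highest value of 7 of the 9 rows in each panel, the exceptions being Csf3r and Ngp in tumours and S100a8 and Cxcl1 in fat. In tumours KO 1 and KO 3 are below the WT mean for S100a8, S100a9, Cxcr2 and Cxcl2.

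The ratio of S100a8 to S100a9 within a library needs no scaling between libraries. In the tumours it was 1.11, 0.48 and 1.57 in KO and 0.57, 0.508 and 0.766 in WT, lowest where both genes were highest. In fat it was 8.28, 1.25, 18.0 and 14.2 in KO and 15.0, 16.3 and 12.5 in WT. S100a8 reads thus exceeded S100a9 reads 12.5 times or more in all 3 WT columns, KO 3 and KO 4, and KO 2 came closest to the tumours. The log2 ratio, KO minus WT, was 0.64 in the tumours (exact permutation p = 0.4) and -1.02 in fat (exact permutation p = 0.486). Without KO 2 these were 1.13 in the tumours (exact permutation p = 0.1, the smallest possible) and -0.18 in fat (exact permutation p = 0.8). The tissues were not tested against each other.

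**Figure D4:**
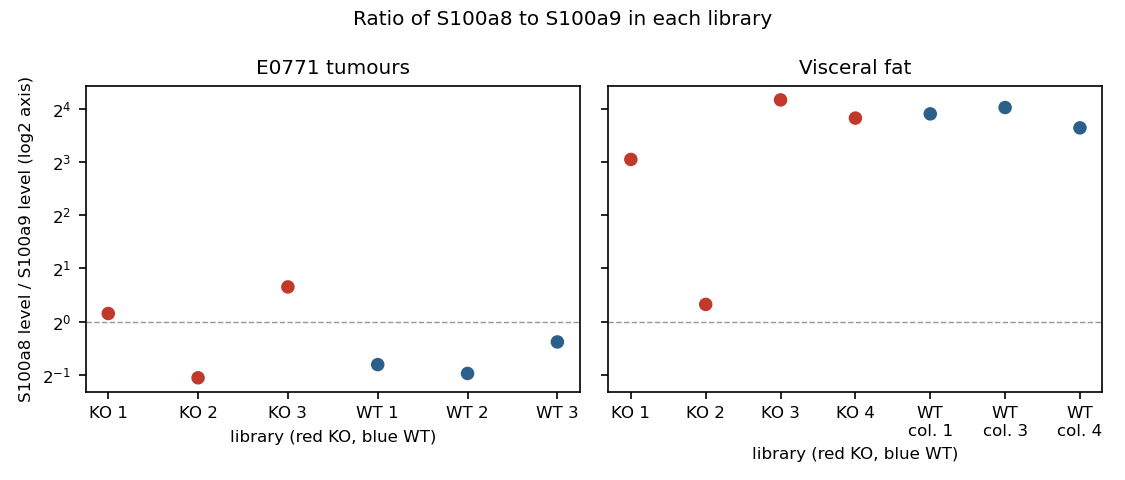
Level of S100a8 divided by that of S100a9 in each library (log2 axis, dashed line at equal levels) in tumours (left) and fat (right), KO in red and WT in blue. Fat libraries lie between 8.28 and 18.0 apart from KO 2 at 1.25, and tumours between 0.48 and 1.57.

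Set per length, as reads scaled by the length of annotated exons and by the gene reads of the library (RPKM), the members spanned a wide range. For Cxcl1 (1875 bases) and Cxcl2 (2068 bases) the annotated exons together cover the whole gene span, which is not so for S100a8 or S100a9. The RPKM of Cxcl1 and Cxcl2 may therefore be too low, and their place in the orders below is uncertain. In the KO tumours the order was S100a9 at 42.5 (1.49 to 124), S100a8 at 16.1 (1.25 to 44.7), Cxcl2 at 12.4 (2.90 to 30.3) and Csf3r at 8.03 (6.11 in the lowest library), all overlapping. In the WT tumours S100a9 led with a mean RPKM of 16.1 (6.82 to 21.9), ahead of Csf3r at 9.43, S100a8 at 6.93 and Cxcl2 at 6.85, whose ranges met. Mmp8 followed at 1.62 (1.34 to 1.96), with no overlap with those above it, and Cxcr2 at 0.29 and Cxcl1 at 0.226 overlapped each other. In KO fat S100a8 led with 15.7 (11.5 to 23.6), and its lowest library was below the highest of S100a9, at 4.57 (1.15 to 12.2). Csf3r at 4.29, Cxcl2 at 1.51 and Cxcl1 at 1.11 came next, and the other 4 members were at 0.172 to 0.312. In WT fat S100a8 led with 9.47 (5.56 to 12.5), above Csf3r at 2.16 (1.49 to 2.98) without overlap, then Cxcl1 at 1.36, S100a9 at 0.847 and Cxcl2 at 0.581.

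Beside the called genes, macrophage markers were higher in KO fat too. The summed level of 11 macrophage markers was 408000, 355400, 291800 and 329800 in KO and 156900, 92210 and 54850 in WT, with 10 of 11 called higher by limma and none lower. Each KO library was above each WT library, as for Csf3r, and WT column 1 was the highest WT library for Csf3r, Cxcl2 and the macrophage sum alike. Among the KO libraries the orders differed. The macrophage sum was highest in KO 1, where Csf3r was lowest of the KO libraries, and Csf3r and Cxcl2 were highest in KO 2. Per 1000 of that sum, a scale chosen after the values were seen, Csf3r stood at 1.46 ± 0.275 in KO (SD, n = 4) and 2.79 ± 0.429 in WT (SD, n = 3), and S100a8 at 1.01 ± 0.274 in KO (SD, n = 4) and 2.31 ± 0.312 in WT (SD, n = 3), each with KO below WT without overlap. So was Cxcl1, at 0.196 ± 0.0378 in KO (SD, n = 4) and 0.872 ± 0.272 in WT (SD, n = 3). Cxcl2, at 0.29 ± 0.11 in KO and 0.403 ± 0.0266 in WT, overlapped. The macrophage sum itself was higher in KO, by a fold of 3.42. A gene that rises less than this sum falls on such a scale by construction, so nothing is read from these separations. Monocyte markers summed to 59270 to 128300 in KO and 56410 to 160000 in WT (0 of 9 called higher and 1 lower), mast cell markers were called higher in 5 of 7 cases, and adipocyte markers lower in 7 of 7. The part of these cells in the member genes was not tested.

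**Figure D5:**
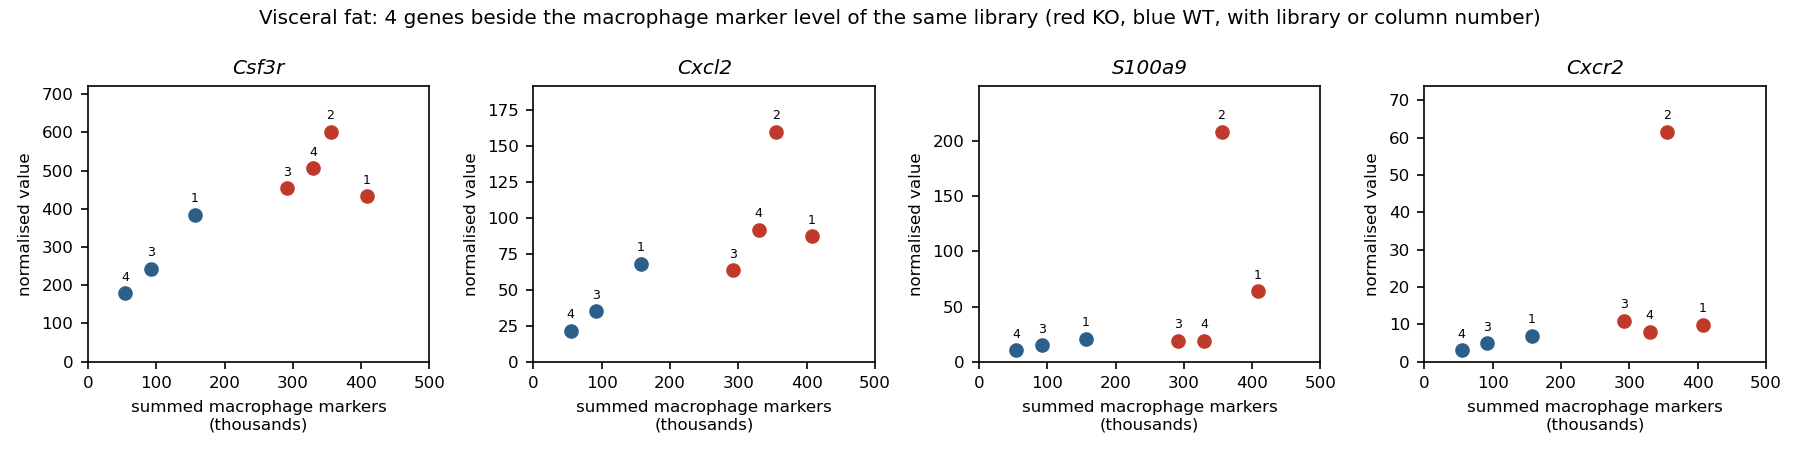
Normalised values of Csf3r, Cxcl2, S100a9 and Cxcr2 in visceral fat (vertical axes) beside the summed level of 11 macrophage markers in the same library (horizontal axes, in units of 1000), KO in red and WT in blue, numbered by library or column. KO libraries lie at 291800 to 408000 and WT libraries at 54850 to 156900 on the horizontal scale, and KO 2 lies far above the others for S100a9 and Cxcr2.

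Of 5 tested CXCR2 ligand and receptor genes in fat, 1 was called higher (Cxcl2) and none lower (median 0.03). Over all genes 16.8% were called higher and 17.4% lower, and nothing is read from this count or those of the lists below. Of 13 tested genes of the neutrophil surface and cytosol, 3 were called higher (Csf3r, Clec4d and Hdc) and 2 lower (Ltb4r1 and G0s2), with a median log2 fold change of 0.24, against -0.000497 over all genes tested. Without KO 2 the counts were 1 higher and 2 lower, and without WT column 4 they were 2 and 2. Clec4d had 4387, 1503, 832 and 939 in KO and 400.0, 126 and 115 in WT (3.06, SE 0.63, limma adjusted p = 0.0073), a lectin receptor that macrophages carry as well. Hdc, the enzyme that makes histamine and a gene of mast cells too, rose by 1.09 on the log2 scale (SE 0.34, limma adjusted p = 0.0376). Ltb4r1, the receptor of the attractant leukotriene B4, fell to 27.6, 37.8, 14.5 and 22.2 in KO, against 90.3, 109 and 63.9 in WT (-1.79, SE 0.36, limma adjusted p = 0.007). G0s2, an inhibitor of fat breakdown that adipocytes also make, had a log2 fold change, KO minus WT, of -1.14 (SE 0.30, limma adjusted p = 0.0205). Retnlg, a resistin-like gene of neutrophils, had 30.9, 15.1, 1.82 and 0 in KO and 62.8, 45.98 and 0 in WT, with no shared pattern by label.

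Of 11 tested granule genes, 2 were called higher and 2 lower (median -0.67), with 1 and 1 without KO 2, and 1 and 3 without WT column 4. Ctsg, the cathepsin of neutrophil and mast cell granules, rose to 66.2, 9.71, 25.4 and 24.2 in KO, against 0.86, 0.98 and 2.06 in WT (3.55, SE 0.63, limma adjusted p = 0.0042). Ltf, lactoferrin, rose to 11.04, 17.3, 21.8 and 14.1 in KO, against 8.60, 2.94 and 3.09 in WT (1.63, SE 0.48, limma adjusted p = 0.0308). Mmp9, the gelatinase of late granules and of other cells, fell to 123, 142, 65.4 and 107 in KO, against 241, 279.8 and 315 in WT (-1.39, SE 0.27, limma adjusted p = 0.006). Prtn3, proteinase 3, fell to 39.7, 28.1, 27.2 and 26.2 in KO, against 46.5, 51.9 and 92.8 in WT (-0.999, SE 0.32, limma adjusted p = 0.0412). Elane, an elastase packed into the same granules, had 2.21, 2.16, 5.45 and 1.008 in KO and 9.46, 14.7 and 21.65 in WT. Every KO library was below every WT library (two-sided exact permutation p = 0.0286, the smallest of 35 relabellings), and its values were too low for the limma test. Mpo had at most 4.42 in any library. Lcn2 had 1237, 887, 1237 and 448 in KO and 477, 361 and 1015 in WT, with overlap (0.66, SE 0.44, limma adjusted p = 0.271).

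Growth and recruitment signals in fat gave 4 higher and 2 lower of 16 tested (median 0.37). Csf2ra, which binds granulocyte-macrophage colony-stimulating factor, rose to 4964, 5601, 5320 and 6294 in KO, against 2453, 1504 and 1058 in WT (1.81, SE 0.25, limma adjusted p = 0.0018), and Csf2rb2, a chain of the mouse interleukin-3 receptor, by 1.46 on the log2 scale (SE 0.27, limma adjusted p = 0.0049). Cxcr4, which holds neutrophils in the marrow and is carried by many leukocytes, completes the 4 with Csf3r. Csf2rb, the chain shared with the granulocyte-macrophage receptor and printed after its values were seen, had 4452, 5281, 3970 and 4582 in KO and 4649, 2783 and 2089 in WT, with overlap (0.60, SE 0.25, limma adjusted p = 0.0927). The interleukin-17 receptor chain Il17rc fell (-0.998, SE 0.17, limma adjusted p = 0.0033), and so did Cebpe, a transcription factor of granule genes (-2.01, SE 0.56, limma adjusted p = 0.0248), at only 1.82 to 7.73 in KO and 12.4 to 32.3 in WT. Csf3 had at most 5.87 in any fat library. Of 11 adhesion genes 5 were called higher and 1 lower (median 0.49). Among the 5 were Itgam (1.74, SE 0.34, limma adjusted p = 0.0059) and Itgb2 (2.26, SE 0.42, limma adjusted p = 0.005), the 2 chains of the integrin Mac-1, which macrophages share. Of 11 NF-kappaB feedback genes 4 were called higher and none lower (median 0.39). They included Nfkbiz (0.69, SE 0.16, limma adjusted p = 0.0131), Zc3h12a (0.72, SE 0.23, limma adjusted p = 0.044) and Birc3 (0.61, SE 0.15, limma adjusted p = 0.0144). Without KO 2 these counts, higher and lower, were 2 and 2 for the signals, 4 and 1 for adhesion and 2 and 0 for NF-kappaB feedback. Without WT column 4 they were 3 and 1, 4 and 2, and 2 and 0 in the same order.

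Likeness of pattern was measured as the root mean square difference between centred log2 levels over the libraries of a tissue, among genes with a mean level of 50 or more. In the 6 tumours the genes most like S100a8 were Lcn2 (0.607), Krt14 (0.723), Trem1 (0.832), Arg2 (0.92) and Ednra (0.957), and those most like Cxcl1 were Ptgs2 (0.487), Ifitm1 (0.512), Arg2 (0.528), Niacr1 (0.535) and Krt14 (0.564). In the 7 fat libraries those most like S100a8 were H2-Eb1 (0.138), H2-Aa (0.16), Cd74 (0.175), H2-Ab1 (0.177) and Tmem176a (0.185), the first 4 of them genes of antigen presentation by MHC class II. Those most like Cxcl1 in fat were Rgs16 (0.205), Has2 (0.217), Il20rb (0.218), Cdkn2b (0.219) and Hif1a (0.239). Without KO 2, a setting chosen after the values were seen, Hp came first for tumour S100a8 (0.291), Hap1 for tumour Cxcl1 (0.189), Il20rb for fat Cxcl1 (0.214) and H2-Eb1 again for fat S100a8 (0.141). These are descriptions over few libraries that share depth and cell makeup.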

How the data were processed

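Per the labels' protocols, libraries came from total RNA with a stranded mRNA kit of Illumina (TruSeq). The tools named, without role or version, are TopHat, CASAVA and DESeq2, and the build is mm10, per the submitters' processing notes. The authors deposited raw read counts per gene for the tumours, where summary lines that name no gene held 66.7% to 72.2% of entries and were left out. For fat the authors deposited a normalised signal, counts divided by 1 size factor per library: values were whole multiples of 1 step per column (100% within 0.001), which gave recovered reads. The counting tool, annotation and strand setting are not given in the sources used here. Groups came from sample titles, and the WT fat columns, numbered 1, 3 and 4, were assigned to the group only.

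For the tumours, edgeR 4.0.16 was run on the counts under R 4.3.3 (TMM, filterByExpr, quasi-likelihood), and for fat limma 3.58.1 (trend) was run on log2(value + 1) for genes at 10 or more in at least 3 libraries. Alternatives used DESeq2 1.42.0. All tests were two-sided, with Benjamini-Hochberg adjustment over all genes tested and a threshold of 0.05. The pipelines were tested on simulated data. There the extra variation between libraries was the same for all genes of a tissue, and the changed genes were not low. It is thus no check for members that varied widely or had few reads. Intervals of folds are limma's and cover the variation between libraries, and the floor given for a count of 0 covers counting error only. Members, lists and the naming rule were chosen with earlier results of these data known. The rule named the 9 members, up to 4 further genes of smallest p per list (2 per marker list), 13 genes by name and the 5 of most similar pattern. It named 68 genes in the tumours and 73 in fat, a part of which is printed. Olfm4 in the tumours and Cxcr4 in fat were named after their values were seen. Counting the lists without KO 2 or WT column 4 was chosen after seeing the data. List members that monocytes, macrophages or mast cells also transcribe are no measure of neutrophils alone. No batch is given in the labels.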

Additional observations from a re-analysis of the deposited data

Results flagged for a closer look

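Cxcr2 in KO fat was 61.49 in KO 2 against 8.06 to 10.9 in the other 3 KO libraries, a gap of 0.947 of the group's range. Cxcl5 in KO fat was 44.23 in KO 2 against 7.05 to 11.04 in the other 3, a gap of 0.893 of the range. Both are high single values by Dixon's test, which was applied to 10 sets of values in KO fat. It picks about 1 in 20 such groups by chance.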

How the results depend on the processing

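In the tumours, the count of members called was 0 in each direction under all alternatives tried for it. Over all genes DESeq2 called 47 higher and 12 lower, and edgeR without a filter 21 and 1. Leaving out 1 library gave 0 to 10 higher and 0 to 11 lower. Same-numbered KO and WT libraries had correlations of -0.218, 0.0118 and -0.22 in their deviations from the group means, and no library correlated best with its own number. Such deviations sum to 0 for each gene within a small group, so this check cannot exclude a pairing. With the replicate number as a block, 0 genes were called, and the log2 fold change of S100a8 was -0.25 and that of S100a9 -0.87. When 1 library was left out, S100a8 ran from -1.93 to 1.74, S100a9 from -3.19 to 1.95, Cxcr2 from -1.41 to 1.79, Cxcl1 from -0.23 to 1.43, Cxcl2 from -0.99 to 1.31, Mmp8 from -0.18 to 0.19, Lcn2 from -0.92 to 1.52, Trem1 from -0.83 to 0.82 and Il1a from -0.34 to 2.09. The lowest value of each of these 9 was the one without KO 2. For the untested genes the difference of mean log2(level + 1) ran from 0 (without KO 2) to 2.01 for Cxcl5 and from -1.03 to 0.87 for Ngp.

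In fat, the count of members called higher was 2, against 1 without a filter, 1 with edgeR on recovered reads and 4 with DESeq2 on them (S100a9, Cxcr2, Csf3r and Cxcl2), and 0 to 3 when 1 library was left out. Over all genes edgeR on the recovered reads called 2356 higher and 2542 lower, and leaving out 1 library gave 1575 to 2691 higher and 1490 to 2567 lower. Cxcl1 ran from -0.51 to 0.27 and Cd274 from -0.20 to 0.076, the last without WT column 3. Cxcl5 could not be fitted without KO 1, KO 2 or WT column 1, since it then failed the filter. The summed level of the neutrophil surface list differed by -0.18 on the log2 scale and its mean log2(value + 1) by 0.33. Pseudocounts of 0.5 and 5 and TMM rescaling left the side of the threshold of each member as it was. No paired analysis was possible for fat because the WT columns cannot be tied to replicate numbers, so that planned fit was not run. Low counts limit Cxcl5 and Ngp in the tumours and Cxcr2 and Ngp in fat, where a few reads set the values.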

Other observations

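Of the 13109 genes tested in the tumours, 16 were at least 3 times as high in KO 2 as in any other tumour (0.122%), and 4 of the 16 were members. They were listed after their values were seen, and no test was made. Il1a led at 5.8 times the next tumour. H2-Q10 (4.68 times) and Rdh12 (4.11 times) were among the 16 too. Krt14 (5.24 times) and Krt5 (3.95 times), keratins of basal epithelium, S100a14 (3.38 times) and Asprv1 (3.09 times), a protease of skin that neutrophils also transcribe, stood beside the mast cell proteases Mcpt1 (3.28 times) and Mcpt2 (3.27 times), Lcn2 (3.76 times), G0s2 (3.7 times) and Steap4 (3.47 times).

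In fat, 5 of 14455 tested genes were at least 3 times as high in KO 2 as in any other library (0.0346%), and 90 in WT column 4 (0.623%). Beside S100a9 (3.25 times) these were Serpinb2 (3.94 times), an inhibitor of plasminogen activators, Arg1 (3.43 times), the arginase of macrophages and other myeloid cells, Spp1 (3.2 times), which encodes osteopontin, and D10Bwg1379e (3.04 times). Spp1 stood at 33580 in KO 2 and at most 10480 in the other libraries.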
